A study of Mus musculus with 4 samples.

Results

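The Wnt genes described here are the 52 protein-coding mouse genes whose GENCODE M21 symbols begin with Wnt, Fzd, Sfrp, Dkk or Rspo and a digit, or with Tcf7, or are Axin1, Axin2, Lrp5, Lrp6, Lef1, Lgr4, Lgr5 or Lgr6. They are 52 of the 21728 protein-coding genes on the autosomes and X with a symbol counted once. They comprise 19 ligands, 10 frizzled receptors, 2 co-receptors, 4 Sfrp and 4 Dkk antagonists, 4 R-spondins, 3 Lgr receptors, 2 Axin scaffolds and 4 TCF/LEF factors. Chromatin immunoprecipitation and sequencing of heart tissue was used to map H3K27ac, the acetylated form of lysine 27 of histone H3 that marks promoters and enhancers in use. The only group is adult female B6CASTF1/J mice aged 2 months, a first-generation cross of C57BL/6J and CAST/EiJ with no other allele or treatment in the labels. There were 4 libraries, made from 2 biological replicates with 2 technical replicates each, and each biological replicate was a pool of 2 hearts. Both pools carry the same donor identifier, so a difference between them may be technical.

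Wnt ligands are secreted lipid-modified proteins that bind frizzled receptors and the co-receptors Lrp5 and Lrp6 at the cell surface. In the canonical branch this stops the Axin scaffold from directing beta-catenin to destruction, and beta-catenin then acts in the nucleus with TCF/LEF factors. Sfrp and Dkk proteins block ligand or co-receptor outside the cell, and R-spondins acting through Lgr receptors keep frizzled receptors at the surface. In the heart the pathway is known for its roles in development, valve formation and repair after injury.

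There are 4 deposited lists, of which 2 hold peaks from both replicates and share most of their intervals, and each replicate has a list of its own. The list called replicated, with 63061 peaks, is used throughout unless another is named. A peak is called a promoter peak of a gene when it comes within 1 kb of one of its annotated transcription start sites. Each peak carries the authors' fold, an enrichment that is compared here only within a list. To set a gene's fold in context its percentile is given, the share of coding genes with a promoter peak in that list whose highest promoter fold is lower. The files used here give no read count, so depth is unknown, and with 1 list per replicate no test between replicates exists. The tissue label was checked against marker genes. Promoter peaks lay at 8 of 8 cardiomyocyte, 5 of 5 endothelial, 5 of 5 fibroblast and 4 of 5 pericyte and smooth muscle markers, at 1 of 4 epicardial and 1 of 3 Schwann cell markers, at 0 of 5 macrophage and 0 of 4 lymphocyte markers, and at 0 of 3 genes each for liver, neuron and adipocyte. In the list of replicate 2 alone, the macrophage markers Cd68 and Ptprc and the smooth muscle marker Myh11 had one as well. In bulk tissue fewer cells of a type and less acetylation per cell cannot be told apart.

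The sequences before 4 start sites show the contrast that runs through these genes. All are rich in CG dinucleotides, printed in capitals, but the first pair lies at acetylated starts and the second pair at starts without a peak. They are the bases before the RefSeq start on GRCm38, up to 250 and without any annotated UTR, each on the strand of its gene, and these genes were chosen after their values were seen. Fzd4 is at chr7:89404116-89404354 on the plus strand, with 24 CG, and Axin2 is at chr11:108920099-108920348 on the plus strand, also with 24. The capital C that ends the Axin2 line has no G after it in the printed bases and is not counted. Wnt7a is at chr6:91411364-91411603 on the minus strand, with 32 CG, and Wnt6 is at chr1:74771642-74771891 on the plus strand, with 28.
Fzd4: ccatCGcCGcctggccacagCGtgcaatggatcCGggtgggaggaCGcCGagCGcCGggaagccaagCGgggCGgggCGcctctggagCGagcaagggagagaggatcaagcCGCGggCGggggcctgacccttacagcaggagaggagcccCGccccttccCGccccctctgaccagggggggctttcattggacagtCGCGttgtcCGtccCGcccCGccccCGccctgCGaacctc
Axin2: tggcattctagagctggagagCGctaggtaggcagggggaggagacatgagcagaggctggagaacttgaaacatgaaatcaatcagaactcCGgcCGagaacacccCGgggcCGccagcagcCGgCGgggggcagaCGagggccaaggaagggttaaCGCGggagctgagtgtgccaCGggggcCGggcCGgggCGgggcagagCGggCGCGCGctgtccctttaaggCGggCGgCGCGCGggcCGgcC
Wnt7a: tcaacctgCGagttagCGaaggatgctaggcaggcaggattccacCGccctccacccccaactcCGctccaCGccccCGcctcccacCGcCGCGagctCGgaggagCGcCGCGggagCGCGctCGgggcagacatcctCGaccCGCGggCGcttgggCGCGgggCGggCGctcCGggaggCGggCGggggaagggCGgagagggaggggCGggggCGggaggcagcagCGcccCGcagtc
Wnt6: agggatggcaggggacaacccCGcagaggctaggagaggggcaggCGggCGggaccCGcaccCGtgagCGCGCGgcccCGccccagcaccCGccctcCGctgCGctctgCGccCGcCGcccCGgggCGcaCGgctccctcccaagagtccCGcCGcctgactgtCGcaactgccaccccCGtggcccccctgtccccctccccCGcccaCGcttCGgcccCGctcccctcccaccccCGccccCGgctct

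Promoter peaks were unevenly spread over the roles. Of the 52 genes, 21 (40.4%) had a promoter peak, against a background of 57.3% of all protein-coding genes. The receiving side of the pathway was mostly acetylated: 8 of 10 frizzled receptors, both co-receptors, both Axin genes and 2 of 3 Lgr receptors had a promoter peak. The secreted side was mostly not: 4 of 19 ligands, 1 of 4 Dkk genes, 0 of 4 Sfrp genes and 0 of 4 R-spondins had one. Of the TCF/LEF factors, Tcf7l1 and Tcf7l2 had a promoter peak, and Tcf7 and Lef1 did not. With the 5′ end of each gene as its only start, 20 of 52 had a peak, against 53.7% of all coding genes, and the gene lost was Wnt5b. The lists of single replicates gave the same picture. In the list of replicate 1, 21 of the 52 had a promoter peak, against 55.7% of coding genes, and in that of replicate 2, 23 had one, against 58.4%. The status of 50 of the 52 genes was the same in the replicated list and both single lists. The exceptions, Wnt2 and Tcf7, had one in replicate 2 alone. With peaks shared with another gene left out, 20 of the 52 had a promoter peak, beside 8604 of the 21728 coding genes. Under that setting the Wnt share was close to that of coding genes.

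**Figure D1:**
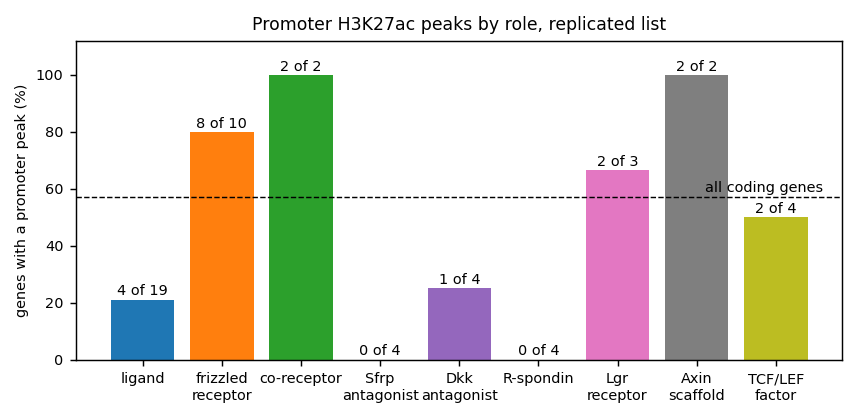
Bars show the percentage of genes of each role with a promoter peak in the replicated list, with the count above each bar, and the dashed line is the share over all coding genes, 57.3%. The frizzled, co-receptor, Lgr and Axin bars stand above the line, and the ligand, antagonist, R-spondin and TCF/LEF bars below it.

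Of the ligands, Wnt5a, Wnt5b, Wnt9a and Wnt11 had promoter peaks. Wnt5a, a ligand best known for beta-catenin-independent signalling, had the highest fold of the 4. Its fold was 6.05 in the list of replicate 1, 9.66 in that of replicate 2 and 7.49 in the replicated list, where it stood at percentile 20.1. Its widest promoter peak, chr14:28505384-28507359, measured 1.98 kb. Wnt9a, known for its part in joint formation, had folds of 4.46, 9.66 and 6.54 in the same order, and stood at percentile 15.6. Wnt11, a ligand needed for outflow tract formation, had folds of 2.43, 5.83 and 4.14, and stood at percentile 5.66. None of the 4 ligands stood above percentile 22.15 in the replicated list or in either single list.

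Wnt5b was acetylated away from its 5′ end. Its promoter peak, chr6:119467039-119467895, lies at an internal start in an intron, with a fold of 5.403 and percentile 10.9. The 5′ end itself was 3.31 kb from the nearest peak. The strongest peak within the gene, chr6:119478014-119479582 with a fold of 27.4, lies in a Wnt5b intron but at the start of Fbxl14, a gene nested there. The other 15 ligands, Wnt1, Wnt2, Wnt2b, Wnt3, Wnt3a, Wnt4, Wnt6, Wnt7a, Wnt7b, Wnt8a, Wnt8b, Wnt9b, Wnt10a, Wnt10b and Wnt16, had no promoter peak in the replicated list. Wnt2 had a peak of 0.385 kb with a fold of 3.02 in the list of replicate 2 alone, at percentile 0.410 there.

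Frizzled receptors bind the ligands through a cysteine-rich domain, and Fzd1 to Fzd8 all had promoter peaks while Fzd9 and Fzd10 had none. Fzd4, the frizzled that binds norrin as well as Wnts and acts in blood vessels, stood out. Its fold was 19.8 in the list of replicate 1, 30.2 in that of replicate 2 and 24.3 in the replicated list. The percentile was 88.6, 90.4 and 89.4. The peak, chr7:89402470-89408725, was 6.26 kb wide and reached from before the start well into the gene, which is 8.78 kb long. It also lies within 1 kb of a start of the neighbouring gene Tmem135, and with shared promoter peaks left out Fzd4 is the only one of the 21 genes that loses its call. Over all coding genes the same setting lowered the count from 12450 to 8604.

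Fzd6 had folds of 13.7, 22.2 and 19.4 in the list of replicate 1, that of replicate 2 and the replicated list, and stood at percentile 77.2 in the last. Fzd1 and Fzd7 lay near the middle of the list, with replicated folds of 12.9 and 12.2 and percentiles 48.6 and 44.8. Fzd2 (fold 9.48, percentile 30.4), Fzd8 (8.54, 25.4), Fzd5 (7.76, 21.2) and Fzd3 (6.73, 16.6) were lower. The order of these 4 differed between pools: Fzd5 was above Fzd8 in replicate 1, at percentiles 18.7 and 15.1, and below it in replicate 2, at 21.8 and 32.0. Fzd9 had its nearest peak 9.65 kb from its start, and Fzd10 had none within 401.4 kb, the greatest distance of the 52 genes.

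The co-receptors Lrp5 and Lrp6 both had promoter peaks. Lrp6, which is phosphorylated on ligand binding and recruits Axin, had the highest promoter fold of all 52 genes in the replicated list and that of replicate 1, while in that of replicate 2 Fzd4 was higher. Its fold was 24.4 in the list of replicate 1, 28.8 in that of replicate 2 and 26.5 in the replicated list, at percentiles 95.7, 88.0 and 93.0. The peak, chr6:134565680-134567722, was 2.04 kb wide. Lrp5 had a lower fold, 13.2, 16.4 and 14.9 in the same order, but a wider peak of 4.21 kb at chr19:3684109-3688321. Its percentile was 64.5, 49.6 and 58.5, so that it stood below Fzd1, at 54.2, in replicate 2.

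**Figure D2:**
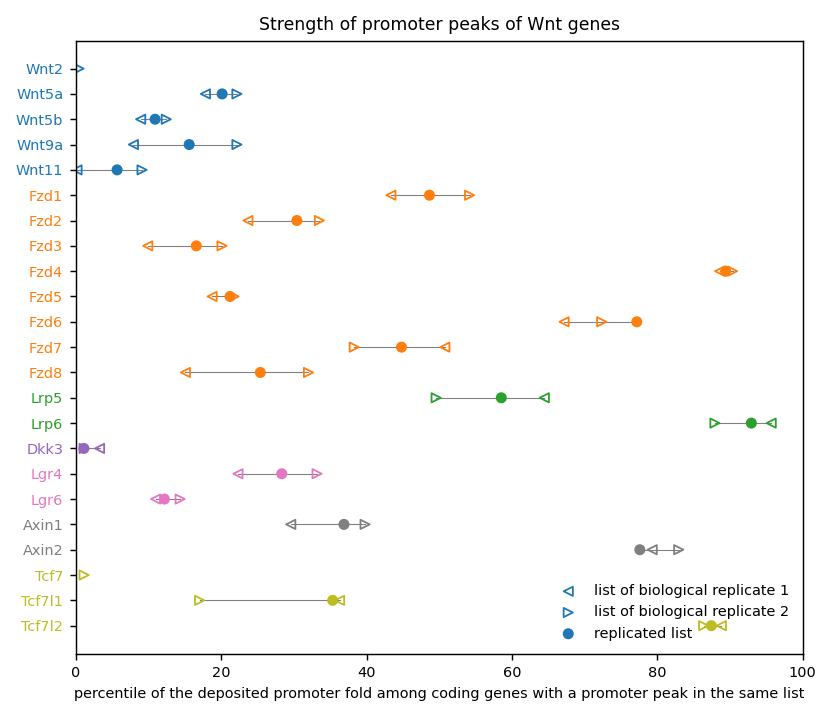
Each row is a Wnt gene with a promoter peak in at least 1 of the 3 lists, and the x axis is the percentile of its fold among coding genes with a promoter peak in the same list. Open triangles are the lists of the single replicates, filled circles the replicated list, colours the roles and lines the range. Lrp6, Fzd4 and Tcf7l2 lie to the right in all 3 lists, and the ligands and Dkk3 to the left.

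The Sfrp antagonists and the R-spondins were the roles without any promoter peak, and 1 of 4 Dkk antagonists had one. Sfrp1, Sfrp2, Sfrp4 and Sfrp5, secreted decoys that resemble the ligand-binding domain of frizzleds, had no promoter peak in any of the 4 lists. Sfrp4 came nearest, with a peak 3.31 kb from its start, the shortest distance among the genes outside the definition, followed by Wnt2b at 5.76 kb. Dkk1 and Dkk2, which block Lrp5 and Lrp6, and Dkk4 had no promoter peak. Dkk3, a relative with a less settled role, was the gene just inside the definition, its peak lying 0.872 kb from the start. Its fold was 3.57 in the list of replicate 1, 3.42 in that of replicate 2 and 2.94 in the replicated list, at percentile 1.08, and the peak was 0.311 kb wide. Rspo1, Rspo2, Rspo3 and Rspo4 had none. Their receptors Lgr4 and Lgr6 did, at percentiles 28.3 and 12.2, while Lgr5, known as a stem cell marker of the gut, did not. For Lgr6 the fold of 5.69 belonged to an internal start, and the peak at its 5′ end had 3.70.

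Both Axin genes, the scaffolds of the destruction complex, were acetylated. Axin2, which is itself a widely used target gene of canonical Wnt signalling, had folds of 16.5, 26.4 and 19.5 in the list of replicate 1, that of replicate 2 and the replicated list. Its percentiles were 79.3, 83.0 and 77.6. The peak, chr11:108920365-108922376, began 0.016 kb after its 5′ end and was 2.01 kb wide. Axin1 was lower, with folds of 7.83, 14.1 and 10.7 and percentile 36.9. Among the TCF/LEF factors, which bind DNA and recruit beta-catenin, Tcf7l2 had folds of 19.9, 28.0 and 23.3 and percentile 87.4. Its peak, chr19:55740523-55745607, was 5.08 kb wide, the widest of the 52 genes in the replicated list after that of Fzd4. In the list of replicate 1 it was wider than that of Fzd4, at 4.98 kb against 3.16 kb. Tcf7l1, which acts mainly as a repressor, had folds of 8.77, 8.24 and 10.4. Its percentile was 36.3 in replicate 1 and 17.01 in replicate 2, the largest gap between the pools, at 19.3 points. Lef1 had its nearest peak 25.3 kb from any start, and Tcf7 had a peak of 0.357 kb with a fold of 3.42 in the list of replicate 2 alone, at percentile 1.12.

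The 2 pools of hearts gave overlapping promoter peaks at all 21 genes, and at 16 of the 21 the peaks covered at least 50% of each other. The promoter peak was wider in replicate 2 at 20 of the 21 genes, Fzd6 being the exception, and over all coding genes with a promoter peak in both lists the share was 94.1% of 12042. The list of replicate 2 covered 81.1 Mb and that of replicate 1 covered 54.4 Mb. Fold percentiles differed between pools by a median of 8.95 points for the 21 genes and by 5.501 over all such coding genes. They were higher in replicate 2 for 15 of the 21. Differences below about this size between single Wnt genes, such as Fzd5 against Fzd8, are not larger than the spread between the pools.

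The base composition of the start sites was set beside their acetylation. Promoters rich in CG dinucleotides carry H3K27ac in most tissues, so the ratio of observed to expected CG was computed from 250 bases before to 50 after the 5′ end. Among all coding genes with a ratio of at least 0.6, the conventional limit for a CpG island, 83.9% of 9714 had a peak within 1 kb of the 5′ end. Among the Wnt genes above this limit 16 of 34 did (47.1%). The CG-rich starts without a peak were those of 9 ligands (Wnt1, Wnt2b, Wnt3, Wnt3a, Wnt4, Wnt5b, Wnt6, Wnt7a and Wnt9b), of Sfrp1, Sfrp2 and Sfrp5, of Rspo1, Rspo3 and Rspo4, and of Fzd9, Lef1 and Tcf7. For ligands 2 of 11 CG-rich starts were acetylated, and for frizzled receptors 6 of 7.

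Single genes show the same split. The ratio was 0.94 at Wnt7a, 0.86 at Wnt3a, 1.04 at Sfrp1 and 1.03 at Tcf7, all without a 5′ peak, and 0.78 at Fzd4, 0.89 at Axin2 and 1.17 at Lrp6, all with one. Wnt5b had 1.06 at its 5′ end, which carried no peak. Over all coding genes the median ratio was 0.75 for starts with a peak and 0.22 for those without. For Wnt genes these medians were 0.80, over 20 genes, and 0.69, over 32. Fzd6, Fzd2, Wnt5a and Dkk3 had a 5′ peak with a ratio under 0.6, from 0.50 at Fzd6 to 0.55 at Dkk3. Counted over 500 bases on either side of the 5′ end, only Dkk3 of these stayed under 0.6, at 0.43. Fzd6 then had 0.84, Fzd2 0.68 and Wnt5a 0.66. These are counts of genes in 1 tissue, and genes of a family are not replicates.

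**Figure D3:**
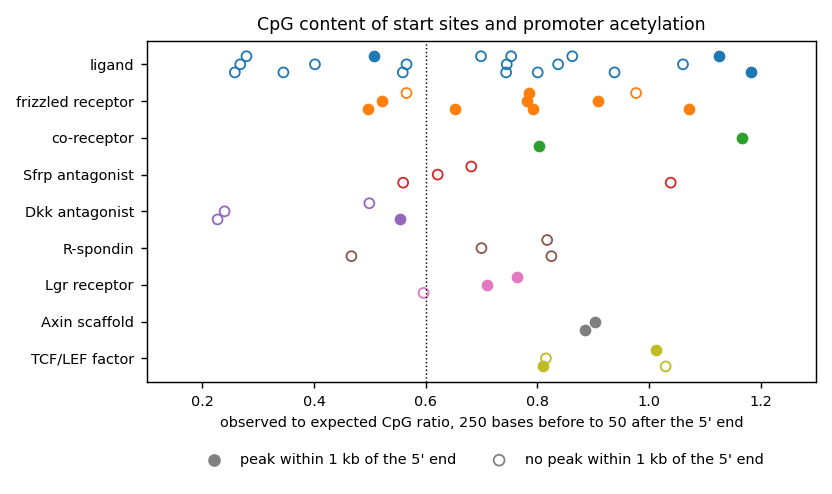
Each point is 1 of the 52 genes, placed by the observed to expected CG ratio of its start on the x axis and by role on the y axis, with a small vertical offset for legibility. Filled points have a peak within 1 kb of the 5′ end, and the dotted line is the ratio of 0.6. Right of the line, 18 of 34 points are open, among them 9 ligands, 3 Sfrp genes and 3 R-spondins.

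Acetylated length was next compared, counted as the base pairs under peaks in the gene and the 50 kb on each side of it. Its median over the 52 genes was 3.37 kb, against 4.39 kb over all coding genes. No peak lay in the window of 11 genes (21.2%), close to the 20.9% of all coding genes. These were Wnt2, Wnt3, Fzd10, Sfrp1, Sfrp2, Dkk1, Dkk2, Rspo2, Rspo3, Rspo4 and Lgr5. Much of the length belonged to neighbours: of 256 peaks in the windows, 144 (56.2%) had a Wnt gene as the nearest coding gene by start site. Another 12 genes had peaks in their window but none nearest to them. For Wnt3a, whose window held 9.16 kb, the peaks were nearest to Wnt9a, Arf1, Mrpl55 and 2310033P09Rik, and for Lef1, with 11.96 kb, 8 of 9 peaks were nearest to Hadh. For Sfrp5, with 5.14 kb, all 6 were nearest to Marveld1, Zfyve27 or Golga7b. The windows of Wnt1 and Wnt10b, Wnt6 and Wnt10a, Wnt3 and Wnt9b, and Wnt3a and Wnt9a overlap, so these pairs share sequence.

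**Figure D4:**
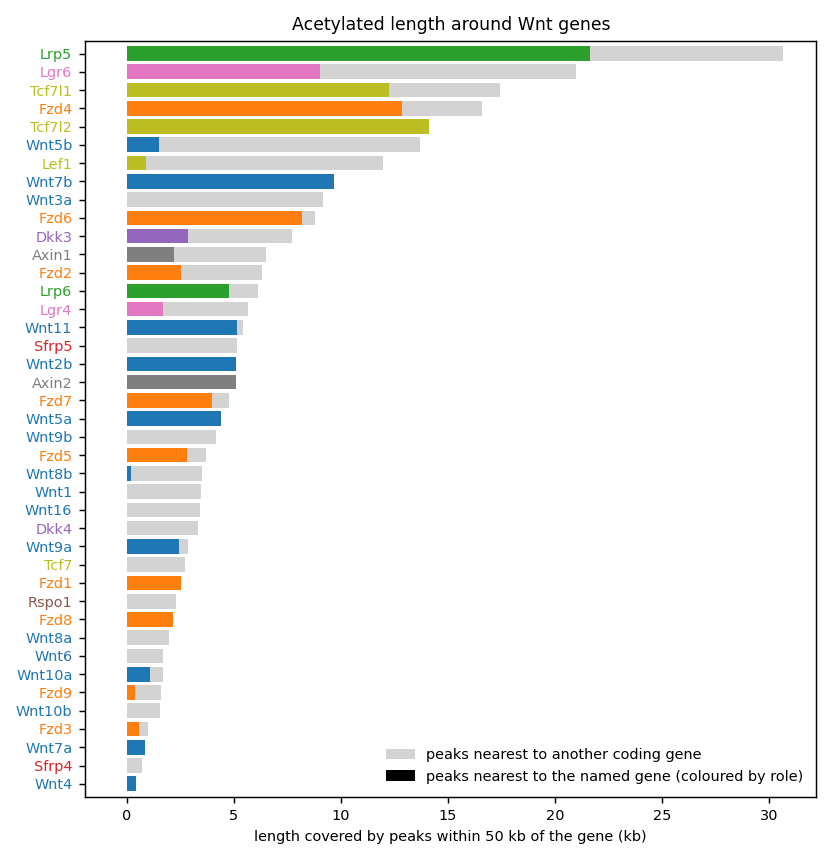
Bars show the length covered by peaks within 50 kb of each of the 41 Wnt genes with any, in kb. The coloured part is covered by peaks nearest to the named gene and the grey part by peaks nearest to another coding gene. Lrp5 has the longest bar, 30.7 kb, and the bars of Wnt3a and Sfrp5 are grey throughout.

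Of the 141.3 kb covered by peaks nearest to Wnt genes, 56.3% lay around 6 of them: Lrp5 (21.6 kb), Tcf7l2 (14.1 kb), Fzd4 (12.8 kb), Tcf7l1 (12.3 kb), Wnt7b (9.69 kb) and Lgr6 (9.03 kb). Peaks whose summit lies over 2.5 kb from the start of any coding gene, called distal here, made up 108 of the 144. At Lrp5 14 distal peaks covered 17.4 kb, all in the gene's introns, and the strongest, chr19:3667627-3671225, had a fold of 13.3, close to the 14.9 of its promoter. Tcf7l2, a gene of 191.8 kb with many introns and 17 annotated starts, had 13 distal peaks, led by chr19:55837991-55839712 with a fold of 7.56. Some of the weaker distal peaks at Lrp5 and Tcf7l2 had no overlapping peak in the list of replicate 1. At Tcf7l1 10 distal peaks were led by chr6:72654431-72656281 in an intron, with a fold of 8.71. Fzd4 had 4, led by an intergenic peak at chr7:89417853-89419148 with a fold of 6.64.

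Wnt7b and Lgr6 had distal peaks stronger than anything at their starts. Wnt7b, a ligand of lung and vessel development, had no promoter peak, but 7 peaks lay 16.6 kb or more before its 5′ end in no annotated gene. The strongest, chr15:85609622-85613073, was 3.45 kb wide, 28.9 kb from the start, and had a fold of 22.7. All 7 were found in the lists of both replicates. Wnt7b was their nearest coding gene by position, and which gene they act on was not tested. At Lgr6 an intronic peak, chr1:135097766-135099785, had a fold of 17.9, against 5.69 for its promoter. Ppp1r12b, a regulator of myosin phosphatase that neighbours Lgr6, was the nearest coding gene of another 8 of the 24 peaks in the Lgr6 window. Each of the 6 leading distal peaks overlapped a peak in both single lists.

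**Figure D5:**
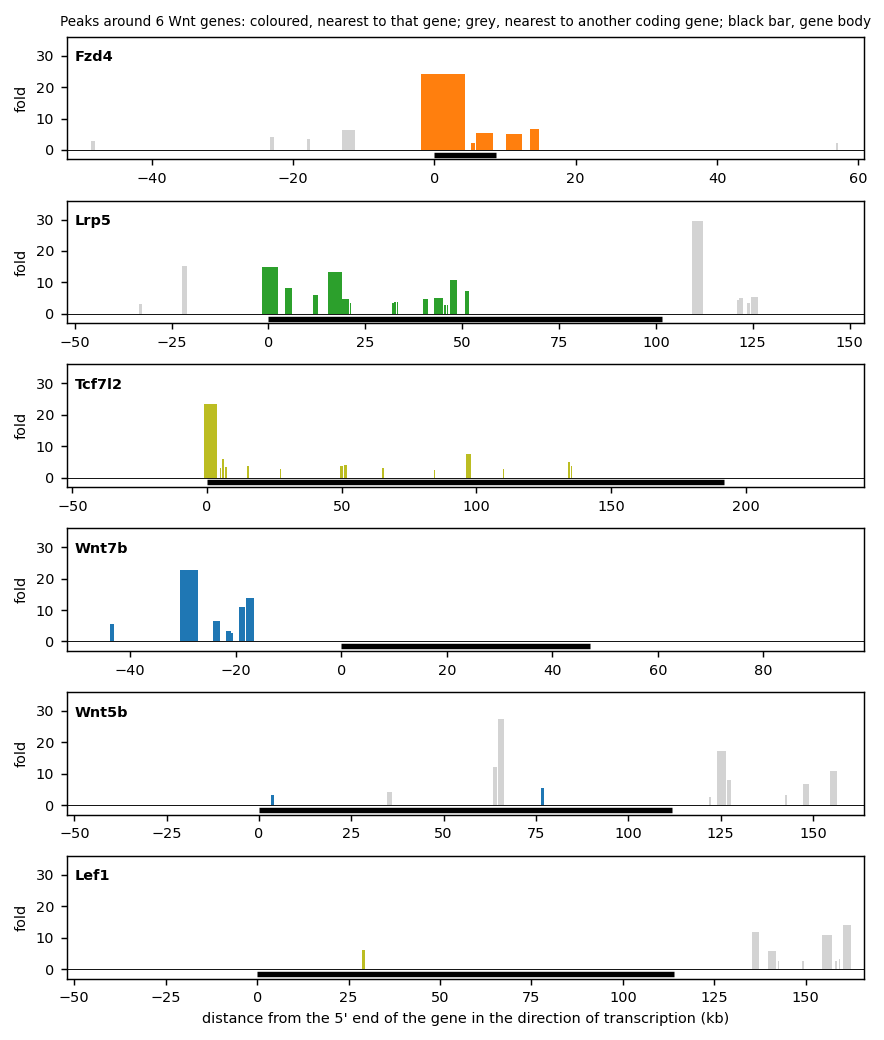
Peaks around 6 Wnt genes are drawn by distance from the 5′ end in the direction of transcription (x, kb) with the authors' fold as height, the black bar marking the gene. Coloured peaks are nearest to the named gene and grey peaks to another coding gene. Fzd4, Lrp5 and Tcf7l2 have a peak at 0, Wnt7b has its peaks 16.6 kb or more before 0, and most peaks around Wnt5b and Lef1 are grey.

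Some ligands without a promoter peak still had peaks nearest to them, judged by the starts of coding genes only. Wnt2b had 7, covering 5.11 kb, with a highest fold of 8.62 at chr3:104967676-104968152. Among the others, some lie at a start or in an intron of Gm40117, and another in a coding exon of Cttnbp2nl. Wnt10a had 1 intergenic peak with a fold of 13.8, 23.8 kb from its start. Wnt7a had 1 with a fold of 6.56, 29.4 kb away, and Wnt4, a ligand of kidney and gonad development, had 1 with a fold of 3.33. The Wnt7a peak lies within 1 kb of starts of 1810044D09Rik and 4930471M09Rik. Lef1 had a single intronic peak of 0.900 kb with a fold of 6.03. Of the 144 peaks nearest to Wnt genes, 75.7% overlapped a peak in both single lists, against 73.0% of all peaks.

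Since TCF/LEF factors act through the sequence CTTTGAT, also in the form CTTTGAA, these letters were searched on both strands in the 500 bp around each summit. A match stood in 32 of the 256 peaks in the windows, 12.5% (exact 95% interval 8.71% to 17.2%), and in 18 of the 144 nearest to Wnt genes, also 12.5% (7.58% to 19.0%). Over all 63061 peaks the share was 16.0%. Intervals cover counting of peaks only. Both TCF/LEF intervals for the Wnt genes include the share of all peaks. For factors known from the heart the share was 23.4% (18.4% to 29.1%) against 33.1% for GATA (either AGATAA, or with a first letter T, TGATAA), 25.4% (20.2% to 31.2%) against 25.2% for TEAD (GGAATG) and 8.59% (5.46% to 12.7%) against 8.62% for MEF2. For the 256 peaks in the windows the GATA interval lay below the share of all peaks. For the 144 nearest to Wnt genes the GATA share was 25.7% (18.8% to 33.6%), an interval that includes the share of all peaks. In distal peaks nearest to Wnt genes the GATA share was 29.63% (21.23% to 39.18%), against 39.22% of all distal peaks. TGATAA can share letters with the end of CTTTGAT, and such a stretch counted for both. From the RefSeq table the first promoter of each gene was searched, 250 bases before to 50 after a start. A TCF/LEF match stood in 2 of the 34 Wnt genes found there, 5.88%, and in 8.77% of 27025 genes. A further promoter of Wnt5b, chr6:119449337-119449636, held 1 as well.

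Of the peaks whose nearest coding gene is a Wnt gene, 10 held a match within 300 bp around the summit, 1 each. The 4 of highest fold are shown, with the match in capitals on the plus strand of GRCm38. Fzd7 at chr1:59482584-59482613 is given as 30 bases because the match lies beside its start. The others are intronic: Tcf7l2 at chr19:55838746-55839045, in its strongest distal peak, Lgr6 at chr1:135095084-135095383, and Tcf7l2 again at chr19:55747771-55748070, in another of its distal peaks. The Axin2 promoter peak held 2 matches within 500 bp, at chr11:108920416-108920445 and chr11:108920779-108920808, and was added after its values were seen because Axin2 is a known target gene. With one Lgr6 peak it was the only peak in the windows with more than 1 match.
Fzd7: acttgggcaaaCTTTGAAgggtaaccggag
Tcf7l2 first: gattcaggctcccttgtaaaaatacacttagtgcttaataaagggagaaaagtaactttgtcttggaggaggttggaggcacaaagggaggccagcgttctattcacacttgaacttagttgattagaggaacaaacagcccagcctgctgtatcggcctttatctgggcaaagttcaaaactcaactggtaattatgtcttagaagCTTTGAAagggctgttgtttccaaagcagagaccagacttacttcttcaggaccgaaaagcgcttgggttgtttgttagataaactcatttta
Lgr6: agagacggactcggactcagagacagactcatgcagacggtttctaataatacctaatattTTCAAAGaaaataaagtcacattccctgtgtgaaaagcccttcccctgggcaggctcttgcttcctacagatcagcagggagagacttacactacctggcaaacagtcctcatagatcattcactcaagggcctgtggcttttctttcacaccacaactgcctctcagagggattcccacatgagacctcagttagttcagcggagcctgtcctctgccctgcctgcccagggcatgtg
Tcf7l2 second: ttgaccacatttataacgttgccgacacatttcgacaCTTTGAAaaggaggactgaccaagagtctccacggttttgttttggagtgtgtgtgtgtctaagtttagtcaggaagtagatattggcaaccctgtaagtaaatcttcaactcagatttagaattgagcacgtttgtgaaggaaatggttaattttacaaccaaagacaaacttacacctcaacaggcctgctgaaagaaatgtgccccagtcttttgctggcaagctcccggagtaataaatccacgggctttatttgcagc
Axin2 first: agccggctgcgCTTTGATaaggtcctggca
Axin2 second: tcggctcgcgcCTTTGAAgtgcacagttaa

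Other genes of the pathway were taken from a list of 60, which follows no naming rule and was fixed with earlier results of these data known. Of these 48 (80.0%) had a promoter peak, beside the 57.3% of all coding genes and the 40.4% of the 52 genes above. All 17 genes of cytoplasmic transduction did, among them Apc (fold 30.7), Gsk3b (29.3) and Csnk1a1 (32.0), parts of the destruction complex, and so did all 9 nuclear cofactors. Among the 17, the peak of Nkd1 was not found in the list of replicate 1 and that of Nkd2, with a fold of 3.51, in neither single list. Ctnnb1, which encodes beta-catenin, had a promoter peak of fold 12.1, though not within 1 kb of its 5′ end. The widest promoter peaks were those of Bcl9l (7.53 kb), a beta-catenin cofactor, Adgra2 (6.88 kb), a co-receptor for Wnt7 ligands in vessels, the planar polarity gene Prickle1 (4.66 kb) and the kinase gene Csnk1e (4.53 kb). Of the secreted or membrane-bound inhibitors and ligand-like factors 3 of 9 had one, namely Frzb, Apcdd1 and Trabd2b. The peaks of Frzb and Apcdd1, each with a fold of 3.32, were not found in the list of replicate 1. The peak of the receptor gene Ror2 was not found there either. Without one were Wif1, Sost, Sostdc1, Cer1, Draxin and Ndp. Also without a promoter peak were Notum, which inactivates ligands, Kremen2, a Dkk receptor, Rnf43, which removes frizzleds, the planar polarity genes Celsr1 and Celsr2, and the target gene Sp5. Celsr2 had one in the list of replicate 2. Wls, which carries ligands to the cell surface, and Porcn, which attaches their lipid, both had a promoter peak, with folds of 11.5 and 4.08, the latter not found in the list of replicate 1.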

How the data were processed

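H3K27ac peaks of mouse heart came as 4 lists of peaks: replicated peaks of both biological replicates, pseudoreplicated peaks of both, and pseudoreplicated peaks of replicates 1 and 2 (55831 and 61333 peaks). Technical replicates had been joined before, so no value per library was used. In each deposited list the authors give positions on mm10, a display score, a ratio (the fold over a control, by the column order of the format), the −log10 p and −log10 q of the peak and, as another value, the distance of the summit. The score and −log10 p were not used. Which aligner and peak caller were run is not given in the sources used here, and depth is unknown.

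Genes came from GENCODE M21, sequence from GRCm38 and promoter sequences from the RefSeq table on GRCm38.p6, which held 34 of the 52 genes. Counts were made with Python 3.11.15, numpy 2.4.6, pandas 2.3.3 and pysam 0.24.0, and overlap counts were tested on simulated data. No test was run: there is 1 group and genes are not replicates. Intervals are exact binomial at 95%, by scipy 1.17.1. The members and lists were chosen with earlier results of these data known. All 52 genes are accounted for, with values for each gene with a promoter peak in the replicated list or with a status that differs between lists. The distal peak named is that of highest fold for the 6 genes with most length, and of the other pathway genes all without a promoter peak and the 4 widest are named. Genes named beyond this, and the CG limit of 0.6, were chosen later. Alternatives were another list, a stricter q or fold, other windows, start sites and assignments of peaks.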

Additional observations from a re-analysis of the deposited data

How the results depend on the processing

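The count of 21 Wnt genes with a promoter peak was between 19 and 23 under the lists, thresholds, windows and start sites tried. The comparison with coding genes was less stable. With shared promoter peaks left out, 20 of the 52 Wnt genes and 8604 of the 21728 coding genes had one, which are close shares. Of the 60 other pathway genes, 41 had one under that setting. For the stricter thresholds and other promoter windows the share of coding genes is not given here. The only count by role that moved by more than 1.5 times was that of the Dkk genes, which was 0 with peaks at or above the median fold of the list and 0 with a window of 500 bp, since the single Dkk3 peak is weak and lies far from its start. The median acetylated length of 3.37 kb was 0.386 kb within 10 kb of the genes, 6.47 kb within 100 kb, and 0.493 kb with peaks nearest to the gene only. Over all coding genes these medians were 1.55, 8.38 and 0.923 kb, so the Wnt median was below that of coding genes in each. The TCF/LEF share of 12.5% was 5.47% within 200 bp of the summit, where all peaks had 6.85%, and 27.7% for CTTTG followed by any 2 of A or T, where all peaks had 31.6%. The other 116 alternative values stayed within the limits set for each result. No paired analysis was possible because the study has 1 group and the lists hold no value per library. With unknown depth, a start without a peak is one where none was called, and a weak peak may have been missed.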
